A study of Mus musculus with 6 samples.

Results

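The genes described here are 10 genes of the hypoxia response outside glycolysis: Hif1a, Egln1, Egln3, P4ha1, P4ha2, Kdm3a, Bnip3, Ndrg1, Mxi1 and Ankrd37. They were taken by name from the array, each through a row annotated to that gene alone, and they make up 10 of the 14860 genes measured. All 10 had such a row and 0 had more than 1. The arrays came from the murine pre-adipocyte line 3T3-L1, obtained from ATCC and used at under 6 passages, which had been turned into adipocytes with an adipogenic cocktail over 7 days. Control cultures (n = 3) received regular media and LCM cultures (n = 3) received leukemia cell conditioned media for 24 hours, as biological triplicates of a single cell line. The sample labels state that the LCM came from 8093 cells, a murine Ph+ acute lymphoblastic leukemia line that had grown for 48 hours in RPMI1640 with 10% FBS, IL-3 and BME, while the methods name the human line BV173. According to the labels the adipocytes were kept in RPMI1640 with 10% FBS. The methods name DMEM for the culture of 3T3-L1 cells, and RPMI1640 with 10% FBS for making conditioned media. What the regular media contained was not given in the sources used here. LCM and control arrays may therefore differ in all that the medium carried, and the parts of the leukemia cells, of IL-3 and BME and of spent medium cannot be told apart.

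Hypoxia-inducible factor (HIF) is a transcription factor made of an oxygen-regulated alpha subunit and the stable partner ARNT. When oxygen is plentiful, prolyl hydroxylases of the EGLN family mark the alpha subunit, the VHL protein binds it and it is destroyed, so that its amount is set mostly at the protein level. When hydroxylation stops, the factor accumulates and switches on genes for sugar use, oxygen delivery, matrix building, mitochondrial removal and its own restraint, and in adipose tissue this pathway is known from the poorly perfused fat of obesity. The arrays measured RNA only, and neither HIF-1α protein nor oxygen was measured in these samples. The study asked how leukemia cells alter adipocytes, and in a separate experiment it treated adipocytes with cobalt chloride, a compound that stabilises HIF-1α.

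HIF binds DNA at a short core written ACGTG or GCGTG. The mouse RefSeq table (GRCm38.p6) held promoter windows, from 250 bases before to 50 bases after a start site, for 9 of the 10 genes, with no entry for Ndrg1. The windows of 5 genes are shown because they pair genes that rose with LCM (P4ha2, P4ha1 and Egln1) with genes that did not pass the test (Bnip3 and Hif1a). Each is written 5′ to 3′ on the strand of its gene, and capitals mark every core on either strand, so that CACGT and CACGC are the same cores read on the other strand and CACGTG holds ACGTG on both strands. The windows lie at chr11:54100674-54100973 on the plus strand (P4ha2), chr10:59323046-59323345 on the plus strand (P4ha1), chr8:124949205-124949504 on the minus strand (Egln1), chr7:138909457-138909756 on the minus strand (Bnip3) and chr12:73907617-73907916 on the plus strand (Hif1a).
P4ha2: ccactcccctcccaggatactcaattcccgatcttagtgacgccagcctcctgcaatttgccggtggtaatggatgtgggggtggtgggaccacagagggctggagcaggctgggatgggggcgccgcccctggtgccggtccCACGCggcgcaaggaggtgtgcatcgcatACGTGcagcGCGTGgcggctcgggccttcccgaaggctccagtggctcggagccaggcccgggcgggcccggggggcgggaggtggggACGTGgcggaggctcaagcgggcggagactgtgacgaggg
P4ha1: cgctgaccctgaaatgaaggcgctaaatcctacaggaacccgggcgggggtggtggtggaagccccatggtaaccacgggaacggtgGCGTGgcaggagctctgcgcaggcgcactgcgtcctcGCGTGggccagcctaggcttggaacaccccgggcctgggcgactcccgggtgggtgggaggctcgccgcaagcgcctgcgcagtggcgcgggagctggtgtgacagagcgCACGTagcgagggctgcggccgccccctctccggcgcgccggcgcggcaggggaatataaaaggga
Egln1: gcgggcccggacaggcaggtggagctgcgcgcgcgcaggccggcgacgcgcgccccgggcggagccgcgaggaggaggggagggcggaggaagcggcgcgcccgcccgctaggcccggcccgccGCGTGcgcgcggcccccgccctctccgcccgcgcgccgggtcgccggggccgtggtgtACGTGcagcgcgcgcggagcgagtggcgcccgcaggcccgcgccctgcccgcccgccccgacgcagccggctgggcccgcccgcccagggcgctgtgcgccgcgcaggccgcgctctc
Bnip3: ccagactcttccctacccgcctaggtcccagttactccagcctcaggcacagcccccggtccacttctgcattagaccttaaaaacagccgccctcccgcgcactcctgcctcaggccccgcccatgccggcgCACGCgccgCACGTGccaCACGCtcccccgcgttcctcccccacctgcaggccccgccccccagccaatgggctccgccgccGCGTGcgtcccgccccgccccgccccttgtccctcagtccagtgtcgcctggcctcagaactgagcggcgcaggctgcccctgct
Hif1a: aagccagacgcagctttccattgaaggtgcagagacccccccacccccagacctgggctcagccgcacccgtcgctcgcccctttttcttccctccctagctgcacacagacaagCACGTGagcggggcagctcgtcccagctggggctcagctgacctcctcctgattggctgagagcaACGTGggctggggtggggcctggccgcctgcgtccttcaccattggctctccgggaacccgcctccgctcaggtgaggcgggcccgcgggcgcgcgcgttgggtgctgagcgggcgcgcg

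P4ha2 held 4 separate cores, which began 107, 78 and 69 bases before the start site and 11 bases after it. P4ha1 held 3, beginning 163, 126 and 16 bases before the start, and Egln1 held 2, at 126 and 68 bases before it. Bnip3, whose RNA did not pass the test, also held 4 cores, at 117, 108, 99 and 35 bases before the start, and Hif1a held 2, at 135 and 70 bases. Of the other genes, Ankrd37 held 3, Egln3 held 1, Kdm3a held 1 in 1 of its 3 windows, and Mxi1 held 1 in each of 2 of its 3 windows. All 9 genes thus had a core in at least 1 window, beside 58.6% of the 11894 measured genes that have windows (6965 genes). Counted by window the numbers were 10 of 13 (76.9%) beside 53.9% of 14927. The core is short and frequent, and a match describes the letters only.

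Cell type markers were read on the same arrays, as levels of different probes, which cannot be set against each other to rank cell types. The median log2 level of 12 adipocyte markers lay between 12.1 and 12.2 on the control arrays and between 11.7 and 11.8 on the LCM arrays. Medians of 6 B-lineage, 6 macrophage and 6 endothelial markers lay between 5.93 and 6.52 on every array. The macrophage marker Cd68, a lysosomal membrane protein, rose by 0.44 (1.36-fold, adjusted p = 0.0446 with limma), a call that held only without control 2 or control 3 among the 6 subsets of arrays and was lost with centred arrays (adjusted p = 0.0640), and 0 others of these lists were called. With LCM, 4 of the 12 adipocyte markers fell (Retn, Adipoq, Cd36 and Cidec) and 0 rose, beside 1.97% and 2.29% of all genes. All LCM arrays lay below all controls in 10 of the 12, beside 14.7% of all genes. The median difference of the 12 was -0.43, so adipocyte transcripts moved in the same arrays in which the hypoxia genes are compared. Among 10 pre-adipocyte markers 1 fell (Zfp423) and 0 rose, beside 1.97% and 2.29% of all genes. Their medians were 10.6 to 10.8 in the controls and 10.4 to 10.7 with LCM. Over the 6 subsets that leave out 1 array, Retn was called in 4 (not without LCM 1 or LCM 3) and Adipoq, Cd36, Cidec and Zfp423 only without control 2. The part of these markers in the values below was not tested, and in bulk RNA fewer cells of a type cannot be told apart from less RNA per cell. Over all rows, arrays correlated at 0.990 to 0.994 within LCM, at 0.980 to 0.987 within the controls and at 0.979 to 0.989 between the groups. Control 3 correlated more closely with LCM 1 and LCM 2 (0.989 each) than with control 1 (0.987) or control 2 (0.984), so the groups did not stand apart by this measure.

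With LCM, the RNA of 5 of the 10 hypoxia genes rose and that of 0 fell. The called genes were P4ha2 (1.91-fold), Ndrg1 (1.73-fold), Egln1 (1.46-fold), Mxi1 (1.46-fold) and P4ha1 (1.31-fold), at an adjusted p under 0.05 with limma over all 14860 genes. Among all genes, 2.29% were called higher (341 genes) and 1.97% lower (292 genes), a split that turned to 232 higher and 408 lower when each array was centred on its median. The median difference of the 10 genes, LCM minus control, was 0.46 on the log2 scale, beside -0.03 for all genes, whose 5th to 95th percentiles ran from -0.37 to 0.34. In 8 of the 10, all 3 LCM arrays lay above all 3 control arrays, as they did in 12.8% of all genes, and the opposite order was found in 0 of the 10 and in 14.7% of all genes. For each of these 8 the exact permutation p was 0.1, the smallest that 3 arrays against 3 can give. The genes were chosen with these results known, so the counts describe the genes and are no independent test of the pathway. In the text below, levels are log2 expression values, differences are LCM minus control on that scale with limma's standard error (SE) and 95% interval, and p-values are limma's, adjusted over all genes by Benjamini-Hochberg.

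**Figure D1:**
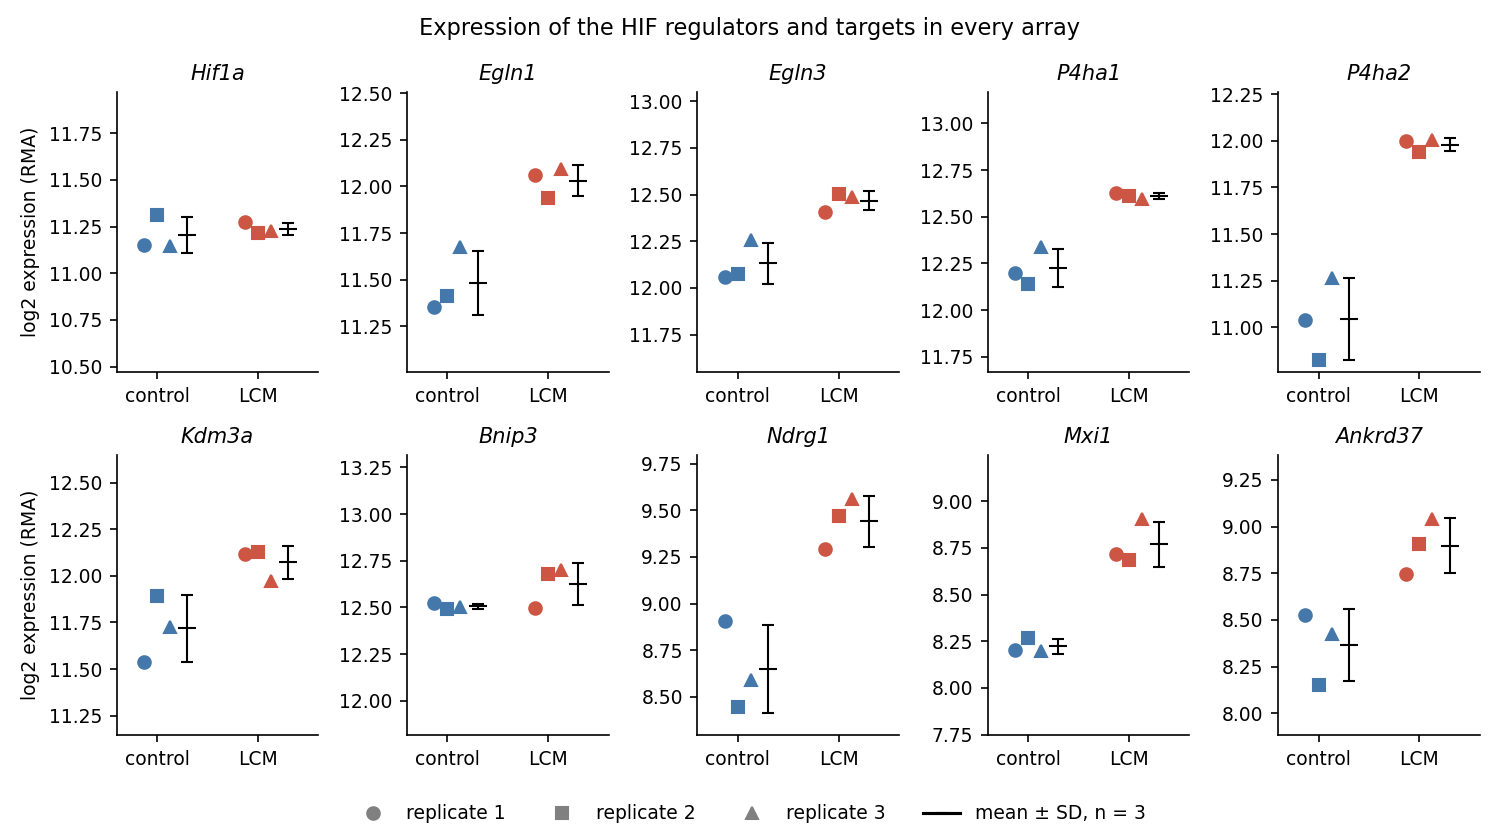
Log2 expression (RMA) of each of the 10 genes on the 3 control and the 3 LCM arrays, with a panel and its own vertical axis per gene, a symbol per replicate, and the mean ± SD (n = 3) of each group beside the points. The LCM points lie above every control point in 8 panels, and the groups overlap for Hif1a and Bnip3.

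Hif1a encodes the alpha subunit HIF-1α, and its RNA was nearly the same in both groups. It measured 11.15, 11.31 and 11.15 on control arrays 1 to 3 and 11.28, 11.22 and 11.22 on LCM arrays 1 to 3. The groups overlapped, since control 2 was the highest of the 6 arrays. The difference was 0.04 (SE 0.08, 95% interval -0.14 to 0.22, adjusted p = 0.843), and the interval in folds ran from 0.905 to 1.16. When each array was centred on its own median the difference was -0.01, with no change in its call. The exact permutation p was 0.6. A promoter window with 2 cores, printed above, thus belonged to a gene whose RNA moved little.

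Egln1 encodes PHD2, the main prolyl hydroxylase that marks HIF-1α for destruction, and it is itself a HIF target. Its controls measured 11.35, 11.41 and 11.68 and its LCM arrays 12.06, 11.94 and 12.09. Every LCM array exceeded every control, with 0.26 between the highest control and the lowest LCM array. The difference was 0.55 (SE 0.10, 95% interval 0.31 to 0.79, adjusted p = 0.0319), a 1.46-fold rise (1.24 to 1.73). Egln3 encodes PHD3, a hydroxylase of the same family whose gene responds to hypoxia in many cell types. It measured 12.06, 12.08 and 12.26 in the controls and 12.41, 12.51 and 12.49 with LCM. The groups did not overlap, but the difference of 0.34 (SE 0.08, 95% interval 0.14 to 0.53) missed the threshold, at an adjusted p of 0.0721.

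P4ha2 encodes a catalytic subunit of collagen prolyl 4-hydroxylase, an enzyme of the endoplasmic reticulum that hydroxylates collagen so that its triple helix is stable. It had the largest difference of the 10 genes. Its controls measured 11.04, 10.82 and 11.26, and its LCM arrays 12.00, 11.94 and 12.00. The LCM arrays lay within a narrow band, 0.67 or more above the highest control. The difference was 0.94 (SE 0.11, 95% interval 0.67 to 1.20, adjusted p = 0.00973), or 1.91-fold (1.59 to 2.30), which placed P4ha2 at rank 39 among the rises of all 14860 genes.

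P4ha1 encodes the other widely expressed catalytic subunit of the same enzyme. It measured 12.20, 12.14 and 12.34 in the controls and 12.63, 12.61 and 12.60 with LCM. The groups were separate by 0.26 and the LCM arrays were almost identical. The difference was 0.39 (SE 0.08, 95% interval 0.20 to 0.57, adjusted p = 0.0400), or 1.31-fold, and the call was lost when each array was centred on its own median (adjusted p = 0.0714). Both subunits had less spread with LCM than in the controls, with SDs of 0.036 and 0.220 for P4ha2 and of 0.016 and 0.102 for P4ha1.

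Kdm3a encodes a histone demethylase that removes methyl groups from lysine 9 of histone H3 and uses oxygen as a substrate. It measured 11.54, 11.89 and 11.73 in the controls and 12.12, 12.13 and 11.97 with LCM. The groups were separate by only 0.08, between control 2 and LCM 3. The difference of 0.35 (SE 0.11, 95% interval 0.10 to 0.60) did not pass the test, at an adjusted p of 0.120.

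Bnip3 encodes an outer mitochondrial membrane protein that tags mitochondria for autophagy. It measured 12.52, 12.49 and 12.50 in the controls and 12.49, 12.68 and 12.70 with LCM. LCM 1 lay among the controls while LCM 2 and 3 lay above them. The difference was 0.12 (SE 0.08, 95% interval -0.07 to 0.31, adjusted p = 0.471), with an upper bound of 1.24-fold, and the exact permutation p was 0.3.

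Ndrg1 encodes a stress-responsive cytoplasmic protein that is used widely as a marker of hypoxic tissue. It measured 8.91, 8.45 and 8.59 in the controls and 9.29, 9.47 and 9.56 with LCM. All LCM arrays were above the highest control, by 0.39 or more, although the controls differed among themselves (SD 0.235). The difference was 0.79 (SE 0.13, 95% interval 0.48 to 1.10, adjusted p = 0.0227), or 1.73-fold (1.40 to 2.14).

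Mxi1 encodes a partner of MAX that opposes MYC at shared DNA sites. It measured 8.20, 8.27 and 8.20 in the controls and 8.72, 8.69 and 8.91 with LCM. The controls were tight (SD 0.040), and the LCM arrays stood 0.42 or more above them. The difference was 0.55 (SE 0.08, 95% interval 0.35 to 0.74, adjusted p = 0.0169), or 1.46-fold (1.28 to 1.67).

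Ankrd37 encodes a small protein of ankyrin repeats whose gene is known as a HIF target. It measured 8.52, 8.15 and 8.42 in the controls and 8.75, 8.91 and 9.04 with LCM. The groups did not overlap, yet the spread within each was wide, with SDs of 0.193 and 0.147. The difference of 0.53 (SE 0.12, 95% interval 0.25 to 0.82, 1.45-fold) was close in size to those of Egln1 and Mxi1 but missed the threshold, at an adjusted p of 0.0581.

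**Figure D2:**
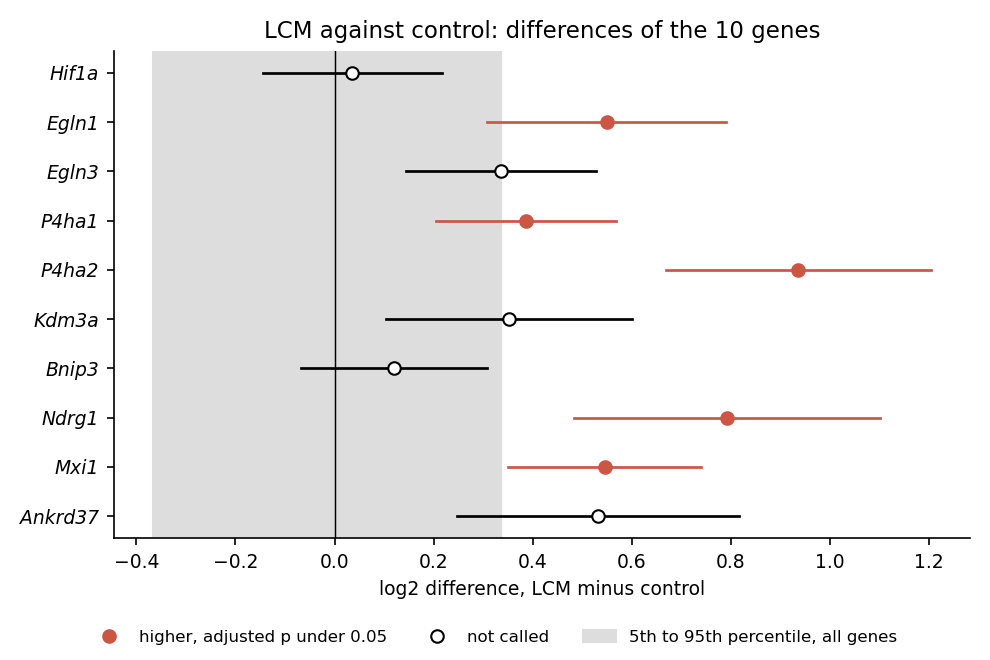
Difference of each gene, LCM minus control in log2 units, with its 95% interval from limma, filled where it passed an adjusted p of 0.05, and a grey band for the 5th to 95th percentiles of all genes (-0.37 to 0.34). Differences run from 0.04 for Hif1a to 0.94 for P4ha2, and the intervals of Hif1a and Bnip3 include 0.

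Across the 10 genes, the shift was of like size on each treated array. The median of the 10, measured from each gene's control mean, was 0.40, 0.43 and 0.49 on LCM arrays 1 to 3, against -0.02, -0.06 and 0.03 on control arrays 1 to 3. Control 2 held the lowest control value for 5 of the 10 genes and LCM 3 the highest LCM value for 6. The 10 genes did not follow each other equally. Over the 6 arrays, Mxi1 had the highest Pearson correlation with the mean of the other 9 genes (r = 0.971), followed by P4ha2 (0.955), while Bnip3 (0.676) and Hif1a (0.146) had the lowest. These correlations carry the group difference and are given as a description. The median SD of the genes was 0.140 in the controls and 0.085 with LCM, beside 0.133 and 0.079 for all genes, so the smaller spread of the LCM arrays was found over all genes as well.

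The calls rested on the full set of arrays. P4ha2 was called in 3 of the 6 subsets that leave out 1 array, with adjusted p-values from limma of 0.00630 to 0.0644, while Egln1 (0.0283 to 0.146), Ndrg1 (0.0249 to 0.112) and P4ha1 (0.0336 to 0.170) were called in 2 and Mxi1 (0.0158 to 0.0748) in 1. Without control 1, Ndrg1 and P4ha2 were called, and without control 3, Egln1, P4ha1 and P4ha2 were called. Without control 2, the array with the lowest control value for 5 of the 10, all 5 called genes stayed called and Kdm3a joined them (adjusted p = 0.0342), while the share of all genes called rose from 4.26% to 8.96%. Without any 1 of the LCM arrays 0 of the 10 passed, and between 0.404% and 0.666% of all genes were called. The size of the differences moved much less, since the median of the 10 stayed between 0.43 and 0.49 in all 6 subsets.

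**Figure D3:**
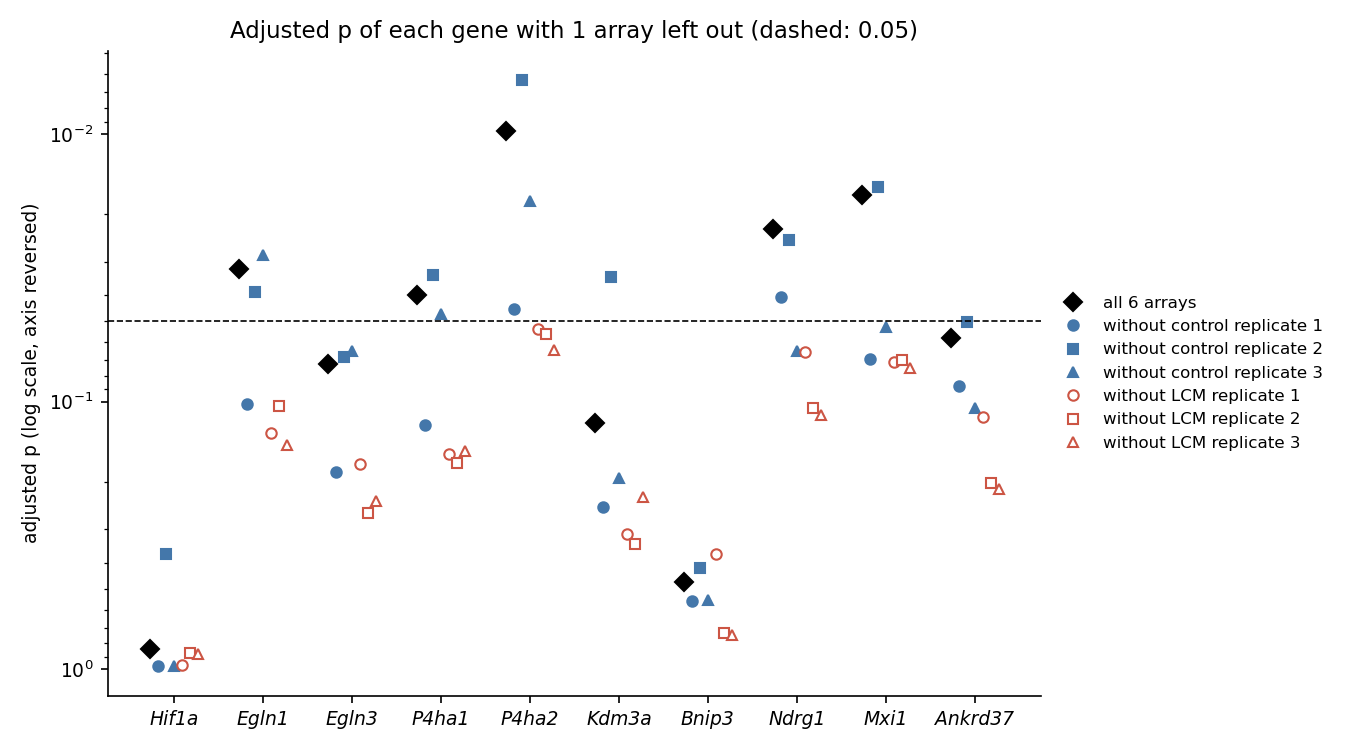
Adjusted p from limma of each gene with all 6 arrays (diamonds) and with each array left out in turn (filled symbols for controls, open symbols for LCM arrays), on a reversed log axis with a dashed line at 0.05. With an LCM array left out 0 of the 10 genes lie past the line, and with control 2 left out 6 do.

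The machinery that controls HIF was described by 15 of 17 further genes, with Crebbp and Rack1 lacking a row of their own. In this list 2 genes rose, 1 fell and 12 did not pass, beside 2.29% called higher and 1.97% lower among all genes. The median difference was 0.08, beside -0.03 for all genes. Epas1, which encodes the second alpha subunit HIF-2α, fell. It measured 10.26, 10.12 and 10.21 in the controls and 9.67, 9.60 and 9.86 with LCM, a difference of -0.49 (SE 0.09, adjusted p = 0.0305 with limma). Vhl, which encodes the subunit that recognises hydroxylated HIF for destruction, measured 8.90, 8.89 and 8.96 in the controls and 9.38, 9.25 and 9.56 with LCM. It rose by 0.48 (SE 0.09, 1.40-fold, adjusted p = 0.0347 with limma). Siah2, a ubiquitin ligase that targets prolyl hydroxylases, rose by 0.34 (1.26-fold, adjusted p = 0.0433 with limma).

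The other control genes stayed below the threshold. Hif1an, the asparagine hydroxylase FIH that blocks the coactivator contact of HIF, differed by 0.26 (adjusted p = 0.144 with limma). Egln2, the hydroxylase PHD1, differed by 0.09 (adjusted p = 0.785) and overlapped between groups. The list depended on single arrays and on scaling. Without control 2, 3 genes rose and 1 fell, and without any other array 0 were called. Centred on array medians, 0 rose and Epas1 alone fell. The adjusted p-values of Epas1, Vhl and Siah2 over the 6 subsets were 0.0228 to 0.146, 0.0383 to 0.131 and 0.0284 to 0.183.

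Further HIF targets outside glycolysis mostly had higher values with LCM, in 22 of 27 genes (81.5%), beside 42.5% of all genes. In 4 of the others, Tfrc, Cox4i2, Cxcr4 and Loxl2, all LCM arrays lay below all controls, an order found in 14.7% of all genes. Their differences ran from -0.37 for Tfrc to -0.13 for Loxl2, and none passed the test. The opposite order was found in 18 of the 27 genes, beside 12.8% of all genes. Of the 27 measured, from a list of 30, 13 rose and 0 fell, beside 2.29% and 1.97% of all genes. The median difference of the list was 0.36, beside -0.03 for all genes. Adm, the vasodilator peptide adrenomedullin, rose by 1.76 (3.40-fold, adjusted p = 0.00421 with limma), and it is one of the genes that the study itself singled out on these arrays. Car12, a membrane carbonic anhydrase, measured 6.11, 6.03 and 6.09 in the controls and 6.93, 6.95 and 7.05 with LCM. It rose by 0.90 (SE 0.07, 1.87-fold, adjusted p = 0.00378 with limma), with every LCM array far above every control. Its control values lay near the lower quartile of all values on the control arrays (6.01 to 6.04). Ak4, a mitochondrial adenylate kinase, measured 8.55, 8.76 and 8.40 and then 9.44, 9.59 and 9.58, a 1.96-fold rise. Ero1a, the oxidase that drives disulfide formation in the endoplasmic reticulum, measured 12.70, 12.61 and 12.98 and then 13.72, 13.73 and 13.65, a 1.92-fold rise. Adm and Car12 stayed called whichever array was left out. Ak4 lost its call only without LCM 3 (adjusted p = 0.0513 with limma), and Ero1a lost it without LCM 2 (0.0523) and without LCM 3 (0.0502). The count called in the list ran from 3 without LCM 3 to 16 without control 2, with 4 without LCM 2, 5 without LCM 1, 6 without control 1 and 9 without control 3, and it was 8 with arrays centred on their medians.

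**Figure D4:**
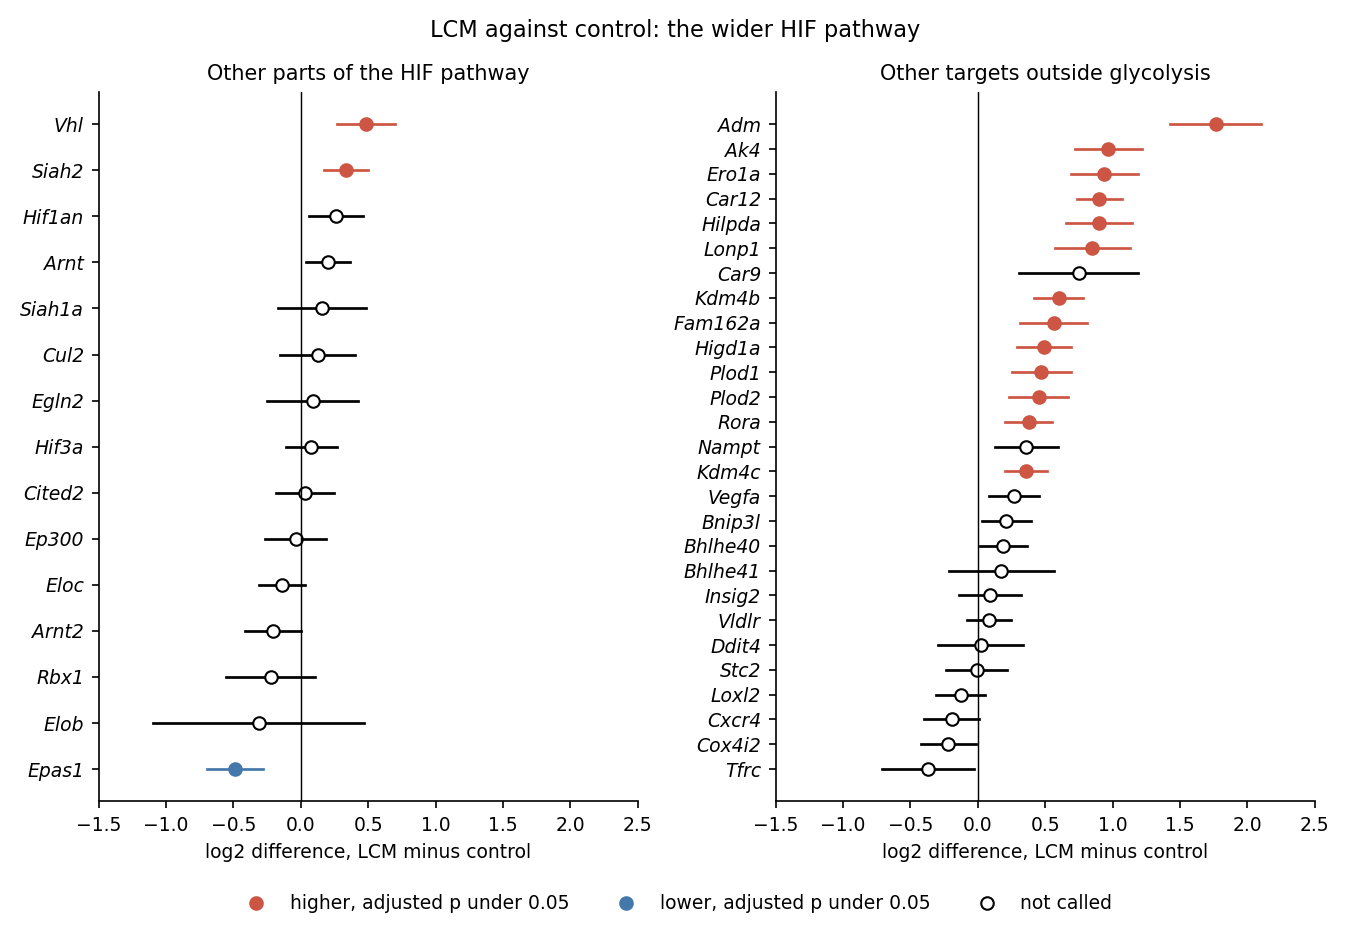
Log2 difference, LCM minus control, of the 15 measured control genes of HIF (left) and the 27 further targets outside glycolysis (right), with 95% intervals from limma and filled points for genes past an adjusted p of 0.05. On the left 2 genes rose and Epas1 fell, and on the right 13 rose, from Kdm4c (0.36) to Adm (1.76).

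The glycolytic targets, which share the HIF pathway, had 13 genes measured of 19 listed. Gpi1, Gapdh, Pgk1, Pgam1, Eno1 and Ldha had no row of their own. Of the 13, 6 were higher and 1 lower, beside 2.29% and 1.97% of all genes. Their median difference was 0.42, beside -0.03 for all genes. Eno2, a glycolytic enolase, rose by 1.57 (2.97-fold, adjusted p = 0.000931 with limma) and was called in all 6 subsets of arrays. The study also lists Eno2 among its most upregulated genes on these arrays. Aldoc, Hk2 and Pfkp, which act at earlier steps of glycolysis, rose 1.84-fold, 1.79-fold and 1.69-fold (adjusted p = 0.0104 each), and stayed called without any 1 of the controls but not without any 1 of the LCM arrays, except Aldoc without LCM 1. Pfkfb3, which makes the activator of phosphofructokinase, was the gene that fell, by 0.99 (adjusted p = 0.00738 with limma). The number higher ran from 1 without LCM 2 or LCM 3 to 7 without control 2, with 2 without LCM 1, 4 without control 1 and 6 without control 3, while Pfkfb3 was called lower in all 6 subsets.

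Relatives of the 10 genes did not all move with them. Among the collagen-modifying enzymes, P4ha3, the third catalytic subunit of the collagen hydroxylase, measured 7.48, 7.90 and 7.45 in the controls and 7.08, 6.94 and 6.84 with LCM. It fell by 0.66 (adjusted p = 0.0428 with limma), opposite to P4ha1 and P4ha2. The lysyl hydroxylases Plod1 and Plod2 rose by 0.47 (adjusted p = 0.0383 with limma) and 0.45 (adjusted p = 0.0459), and both were also counted among the further targets. P4hb, the shared second subunit of the collagen hydroxylase, differed by 0.43 without passing (adjusted p = 0.130). These calls are close to the threshold. P4ha3 and Plod2 were called only without control 2 and Plod1 also without control 3, with highest adjusted p-values of 0.173, 0.185 and 0.161 over the subsets, and with arrays centred on their medians P4ha3 alone remained called.

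Besides Kdm3a, 11 histone demethylases were measured from a list of 13, in which Kdm3b and Kdm6b had no row of their own. Of the 11, 3 rose and 0 fell, beside 2.29% and 1.97% of all genes. Their median difference was 0.18, beside -0.03 for all genes. Kdm4b and Kdm4c, which act on lysine 9 of histone H3, rose by 0.60 (adjusted p = 0.0106 with limma) and 0.36 (adjusted p = 0.0319). Both were also counted among the further targets. Jmjd1c, which belongs to the KDM3 family with Kdm3a, rose by 0.41 (adjusted p = 0.0182 with limma). Kdm5a differed by 0.34 (adjusted p = 0.0651). The number called ran from 0 without any 1 of the LCM arrays to 4 without control 2, with 1 without control 1 or control 3, and was 2 with centred arrays. Among 12 other genes of the MYC and MAX network, 0 were called and 1 was higher at an unadjusted p under 0.05 with limma. In that network Mxd1, a MAX partner like Mxi1, differed by 0.23 (adjusted p = 0.172 with limma). Among the other NDRG genes 0 of 3 were called and 0 reached an unadjusted p under 0.05, with differences of 0.12 for Ndrg2, 0.08 for Ndrg3 and -0.01 for Ndrg4.

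Members of a family were compared directly by the gap between them on each array, in 8 pairs chosen after their values were seen. The gap between P4ha2 and P4ha3 was wider with LCM by 1.59 on the log2 scale, and that between P4ha1 and P4ha3 by 1.04. The difference of P4ha2 exceeded that of P4ha1 by 0.55, that of Ndrg1 exceeded Ndrg3 by 0.72, that of Hif1a exceeded Epas1 by 0.52 and that of Egln1 exceeded Egln2 by 0.46. In each of these 6 pairs, and in Bnip3 against Bnip3l (-0.09), the gaps on the LCM arrays did not overlap with those on the controls. The exact permutation test gave p = 0.1 for each of the 7 pairs, the smallest that 3 arrays against 3 allow, and 0.114 after adjustment over the 8 pairs. Egln3 against Egln2 overlapped, with a difference of 0.25 and an exact p of 0.4. No pair therefore passed a threshold, and this design could not have let one pass.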

How the data were processed

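Total RNA of 3 control and 3 LCM cultures was hybridized to Affymetrix Mouse Gene ST arrays. The authors deposited log2 expression values made with RMA (background correction, quantile normalization and probe summary), a column per array, with no pooling. RMA's version and settings, the array version and the genome build were not given in the sources used here. Precision is limited by the number of arrays.

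Of 23332 rows, 14996 name a single gene in the platform annotation, 1019 several and 7317 none; 14860 genes resulted, and the row with the highest mean stood for 135 genes with several. Groups were compared with limma 3.58.1 in R 4.3.3 (lmFit and eBayes, two-sided, no block, Benjamini-Hochberg over 14860 genes, called at adjusted p under 0.05), after tests on simulated data. Promoters are RefSeq windows of GRCm38.p6. Protein sequences were not used here. Single genes were also compared by an exact permutation test of the means. Tables and figures used Python 3.11.15, pandas 2.3.3, scipy 1.17.1 and matplotlib 3.10.9.

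The 10 genes and all lists were chosen with earlier results of these data known. Named are the 10 genes, up to 4 genes a list by smallest adjusted p, and the 3 genes most correlated with the mean z-score of the 10; Egln2, Hk2, Tfrc, Cox4i2, Cxcr4 and Loxl2 were added after their values were seen. Alternatives were all rows, the mean of a gene's rows, filters on dim genes, repeated quantile normalization, median centring and array weights. Further ones were a robust prior, a mean-variance trend, a replicate block, unpaired and paired t-tests, a threshold of 0.1 and each array left out.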

Additional observations from a re-analysis of the deposited data

How the results depend on the processing

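The 10 genes kept the sign of their difference under every scaling and filter tried except Hif1a, which was -0.014 with arrays centred on their medians. Apart from arrays left out, single genes kept their side of the threshold in 103 cases, lost the call in 16, gained it in 10 and changed sign in 1. The median difference of the 10 ran from 0.41 to 0.49 over the scalings and left-out arrays that change it, and it was not taken with array weights.

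In place of the 5 genes called higher, 1 of the 10 (P4ha2) passed among all 23332 rows and 8 with array weights. With an array left out 0 to 6 passed, and 0 with a t-test after Benjamini-Hochberg adjustment, unpaired or paired. For comparing groups, the methods name a paired t-test at p under 0.05 and mention no adjustment. By the unadjusted t-test 8 of 10 genes passed 0.05 unpaired and 5 paired, beside 2603 and 1761 of all genes. The 341 genes called higher and 292 lower became 173 and 102 with all rows, 889 and 975 with array weights, 104 and 66 with the unpaired t-test, 0 and 0 with the paired one and 601 and 608 at a threshold of 0.1, and ran from 39 to 680 and from 21 to 652 with an array left out. Median centring turned the split to 232 higher and 408 lower, and repeated quantile normalization to 300 and 348.

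For the HIF control genes, 3 called became 0 with all rows, 1 with centring, 5 with array weights, 0 with either t-test and 0 to 4 with an array left out. For the further targets, 13 called became 7 with all rows, 8 with centring, 3 and 0 with the t-tests and 3 to 16 with an array left out. With all rows both the limma fit and the adjustment were made over more rows, and the cause of these changes was not tested.

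Deviations of control and LCM arrays of the same number correlated at -0.23, 0.06 and 0.11, and those of different numbers at -0.28 to 0.28. Control 1 correlated best with LCM 3 (0.28) and control 2 with LCM 1 (0.25), and control 3 alone of the controls with its own number. Of the LCM arrays, LCM 2 alone correlated best with its own number. With so few arrays in a group, these correlations cannot decide whether the numbers pair the samples. With the replicate block, 173 genes were called higher and 151 lower, 4 of the 10 genes were called (without P4ha1), and 0 HIF control genes and 8 further targets. Of these 4 genes, Egln1, Ndrg1 and Mxi1 lay just under the threshold (adjusted p = 0.0488, 0.0464 and 0.0497 with limma), and P4ha2 had 0.0143.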

Other observations

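Genes of mitophagy and its autophagy receptors, the process that Bnip3 serves, mostly did not pass the test. Of 14 measured of 16 listed, 2 rose and 0 fell, beside 2.29% and 1.97% of all genes. The median difference was 0.14 on the log2 scale, beside -0.03 for all genes. Gabarapl1, which anchors cargo receptors to the autophagosome membrane, measured 9.47, 9.10 and 9.39 in the controls and 10.30, 10.23 and 10.39 with LCM. It rose by 0.99 (SE 0.11, 1.99-fold, adjusted p = 0.00761 with limma). Sqstm1, the cargo receptor p62, rose by 0.53 (1.44-fold, adjusted p = 0.0167 with limma), with controls of 12.28, 12.18 and 12.38 and LCM arrays of 12.78, 12.78 and 12.86. The study itself lists Sqstm1 among changed genes of the oxidative stress response run by the transcription factor Nrf2. Bnip3l, the closest relative of Bnip3, differed by 0.21 (adjusted p = 0.186 with limma) and Gabarapl2 by 0.49 (adjusted p = 0.0591), and neither passed. Gabarapl1 was called in 5 of 6 subsets of arrays (not without LCM 3, adjusted p = 0.0529) and Sqstm1 in 2 of 6, those without control 2 and without control 3, with adjusted p-values of 0.0148 to 0.0913.

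The 3 genes outside the 10 whose levels most resembled the mean z-score of the 10 over the 6 arrays were Nfx1, a zinc finger transcription factor (Pearson r = 0.998), Cd47, a membrane protein that restrains phagocytosis (0.997), and Gbe1, the glycogen branching enzyme (0.997). Their differences were 0.43, 0.35 and 0.69 on the log2 scale. They were picked for this likeness, which carries the group difference, so it is a description only.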
